A study of Mus musculus with 2 samples.

Results

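The genes described here encode the proteases, the proton pump and the membrane proteins of the lysosome. They were chosen by symbol alone, as every cathepsin gene whose symbol begins with Cts, every gene whose symbol begins with Atp6v0 or Atp6v1, and Lamp1, Lamp2, Cd63 and Cd68. Ctsk and Atp6v0d2, which serve as osteoclast markers, were left out. The rule found 48 genes of the 32285 in the deposited tables. They were 22 cathepsins, 21 subunits of the vacuolar proton pump (V-ATPase), 4 membrane glycoproteins, and Atp6v1fnb, which matched by symbol only.

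Lysosomes break down material that a cell takes up or recycles. Cathepsins are proteases that mostly work in acid, and the V-ATPase supplies that acid by using ATP in its cytosolic V1 sector to drive protons through its V0 sector in the membrane. In macrophages and dendritic cells this machinery digests engulfed debris and prepares peptides for MHC class II, and in osteoclasts the pump also works at the cell surface to dissolve bone mineral.

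The tissue was mouse soft tissue around the Achilles tendon, digested to single cells and profiled in droplets. The injured library came from the injured limb of mice given a burn with tenotomy, taken at day 7. The uninjured library came from the limb on the other side of mice given the same procedure. The treatment labels do not give the site of the burn. Mice were male and female and 8 to 12 weeks old at injury, and the design text gives 5 mice per group. Both libraries carried the alleles Hoxa11 wt/CreERT2 and R26 wt/LSL-rtTA and the transgene TetO-Vegfd, so Vegfd overexpression is possible in the lineage of Hoxa11-expressing cells in both. The uninjured limb is therefore not tissue of an untreated animal or of an animal without the transgene, and control mice were not analysed here. The sources used here do not say whether several animals were pooled, but each library held cells with Xist and no Y-linked molecule and cells with the reverse.

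The injured library had 10691 barcodes with a median of 15288 unique molecular identifiers (UMIs, counted RNA molecules), and the uninjured library had 6850 with a median of 11606.5. The protocol aimed for 2000 to 6000 cells per channel. Filters kept 9137 injured and 4697 uninjured cells, and the limit of 10% mitochondrial UMIs was exceeded by 7.49% of injured and 26.4% of uninjured barcodes. The libraries shared 19 barcode sequences. Cells were grouped into types by fixed marker genes after clustering without the 48 genes. Mononuclear phagocytes, meaning macrophages, monocyte-like and osteoclast-like cells, numbered 2802 in the injured and 423 in the uninjured library. There was 1 library per condition, so no difference between conditions was tested and no p-value is given. Levels are UMIs per 1000000 UMIs of the cell type (CPM), not scaled by gene length. The 95% intervals are exact but reflect counting error alone and say nothing of the spread between mice. Free RNA in droplets was not removed.

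A gene was compared where its mean level over both sides was 10 CPM or more, and called higher or lower where its log2 ratio, with 5 CPM added to both levels, passed 1 or -1. Higher, lower and within 2-fold, used of a call, refer to that log2 ratio. Folds are ratios of the levels with nothing added, so a gene near 10 CPM can have a fold past 2 and not be called. Of the 48 genes, 41 had a UMI in a kept cell and 26 reached 50 CPM in a mononuclear phagocyte type of 50 or more cells. The other 22 included 9 cathepsin genes of a chromosome 13 cluster (Cts3, Cts6, Cts7, Cts8, Ctsj, Ctsm, Ctsq, Ctsr and Ctsll3), of which 7 had 0 UMIs and Cts8 and Ctsll3 had 1 UMI each. Most of the others are described where they were highest. Of those that are not, Ctsf reached 51.0 CPM in uninjured mesenchymal cells and Atp6v1g2 reached 13.7 CPM in uninjured lymphatic endothelial cells, while Atp6v1e2, Atp6v1g3 and Atp6v1fnb stayed below 1 CPM in each type of 50 or more cells.

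Promoter sequence is shown for 3 genes because many lysosomal genes are known to be regulated by MiT transcription factors such as TFEB, which bind the letters CACGTG. The sequences are the 250 bases before the RefSeq start of the gene on GRCm38.p6 (mm10), written 5′ to 3′ on the strand of the gene, with CACGTG in capitals.
Lamp1, chr8:13158911-13159160, plus strand: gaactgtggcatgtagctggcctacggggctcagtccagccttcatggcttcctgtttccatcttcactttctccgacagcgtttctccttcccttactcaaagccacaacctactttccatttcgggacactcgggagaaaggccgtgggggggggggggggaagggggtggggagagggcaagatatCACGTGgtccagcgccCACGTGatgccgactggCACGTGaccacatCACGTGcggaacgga
Atp6v0b, chr4:117887330-117887579, minus strand: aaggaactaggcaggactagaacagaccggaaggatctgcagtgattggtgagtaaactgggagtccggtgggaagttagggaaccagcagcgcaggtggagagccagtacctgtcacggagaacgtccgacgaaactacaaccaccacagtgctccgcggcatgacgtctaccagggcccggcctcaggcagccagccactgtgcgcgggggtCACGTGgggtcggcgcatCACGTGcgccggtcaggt
Ctss, chr3:95526536-95526785, plus strand: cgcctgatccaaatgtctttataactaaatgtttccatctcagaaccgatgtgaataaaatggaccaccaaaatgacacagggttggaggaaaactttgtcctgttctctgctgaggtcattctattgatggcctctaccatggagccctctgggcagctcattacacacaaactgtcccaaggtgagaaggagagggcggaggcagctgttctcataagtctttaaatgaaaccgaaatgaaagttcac
Lamp1 held the letters 4 times, at 61, 45, 28 and 15 bases before the start, and Atp6v0b held them 2 times. Ctss, shown for contrast, did not hold them in this window. CACGTG reads the same on both strands. In the window from 250 bases before to 50 after the RefSeq start it occurred in 10 of the 39 genes with a window in the table (25.6%), against 2187 of all 27025 genes (8.09%). Before the start alone it occurred in 8 of 39 (20.5%), against 6.86% of all genes. The CLEAR element was searched only as an exact palindrome of 10 bases that holds CACGTG at its centre. That palindrome occurred in 0 of 39 in the longer window, against 0.370% of all genes. With so low a rate among all genes, the count of 0 cannot show whether these genes lack the element. Forms of the element that differ from this palindrome were not searched.

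RefSeq and GENCODE do not always place the start of a gene at the same base, and gene positions given here are from GENCODE. Some of the 39 genes had several windows, 43 in all, of which 28 began within 50 bases of the GENCODE gene start, while in 11 the 250 bases lay wholly inside the GENCODE gene. Of the 10 genes with CACGTG, Atp6v0b, Atp6v0d1, Ctsf, Ctsll3 and Lamp1 had starts within 50 bases of each other in the 2 annotations. For Ctsd the RefSeq start lay 211 bases inside the GENCODE gene. For Ctsl, Atp6v1a and Atp6v0e, and for the window of Ctsa that held the letters, it lay 370, 446, 13165 and 900 bases inside, so those windows lie inside the gene as GENCODE draws it. A match in sequence is not a site shown to be bound.

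The first question was how these genes are distributed over phagocytes and other cells. In the injured library, 22 of the 28 genes compared were higher in mononuclear phagocytes than in all other kept cells, and 0 were lower. Of all genes compared, 14.3% were higher and 17.7% lower. In the uninjured library 16 of 28 were higher and 0 lower, against 13.9% and 18.1% of all genes. The other kept cells include neutrophils and dendritic cells. Summed over the 48 genes, the level was 19839 CPM in mononuclear phagocytes and 5300.2 CPM in all other kept cells of the injured library, a 3.74-fold difference. The same fold in the uninjured library was 3.43.

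In the injured library, cysteine cathepsins were concentrated in macrophages. Ctsb, a broad lysosomal protease, was at 5825 CPM in wound macrophages, 5695 in resident macrophages, 3334 in MHC class II-high macrophages and 1836 in monocyte-like cells. The other 10 types of 50 or more cells held between 293 CPM, in pericytes or smooth muscle cells, and 934 CPM, in osteoclast-like cells. Ctsl, a protease of protein turnover and antigen processing, followed the same pattern less evenly, with 2474 CPM in wound, 1522 in resident and 601 in MHC class II-high macrophages. Its level in MHC class II-high macrophages was below that in mesenchymal cells, which held 729 CPM. In the uninjured library Ctsl was not concentrated in phagocytes. It was at 383 CPM in mononuclear phagocytes and 513 CPM in all other kept cells there, 0.747-fold. Ctss, the protease that trims the invariant chain of MHC class II, was at 3132 CPM in wound macrophages, 2868 in monocyte-like cells, 2434 in MHC class II-high macrophages and 1723 in dendritic cells. In mesenchymal and vascular endothelial cells it was at 27.1 and 17.6 CPM.

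The remaining cysteine cathepsins divided over the macrophage types. Ctsc, which activates granule serine proteases, was highest in resident macrophages at 1694 CPM (1658 to 1730.3) and reached only 48.9 CPM in mesenchymal cells. Ctsh, an aminopeptidase, was highest in MHC class II-high macrophages at 600.2 CPM (578 to 623), with dendritic cells next at 542 CPM (519 to 566). Ctsz, a carboxypeptidase, was at 644 CPM in wound macrophages and at 416 CPM or more in each other mononuclear phagocyte type and in dendritic cells. Ctso reached 51.1 CPM in resident macrophages, its highest level. Ctsw, a protease of cytotoxic lymphocytes, was outside the phagocytes, at 166 CPM in T or NK cells.

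The aspartic protease Ctsd was at 2543 CPM in wound and 1498 CPM in resident macrophages, and lower in MHC class II-high macrophages, at 728 CPM. In the uninjured library Ctsd was at 474 CPM in mononuclear phagocytes and 242 CPM in all other kept cells, within 2-fold. Ctsa, a serine carboxypeptidase that also protects lysosomal glycosidases, was at 439 CPM in wound macrophages and at 68.0 CPM or less in the 8 types of 50 or more cells that were neither mononuclear phagocytes nor dendritic cells. Ctsg, a granule protease of myeloid precursors, had 403 UMIs in monocyte-like cells, all in 7 of 1062 cells. The granule genes Elane and Mpo, chosen after values were seen, were likewise found in few of these cells, with 564 UMIs in 8 cells and 352 UMIs in 11 cells. Prtn3, a granule gene of the same kind, was spread over more of them, with 636 UMIs in 80 cells, of which the 10 highest cells held 86.8%. Ctse, an aspartic protease of immune cells, was at 40.7 CPM in T or NK cells and 28.3 CPM in neutrophils.

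**Figure D1:**
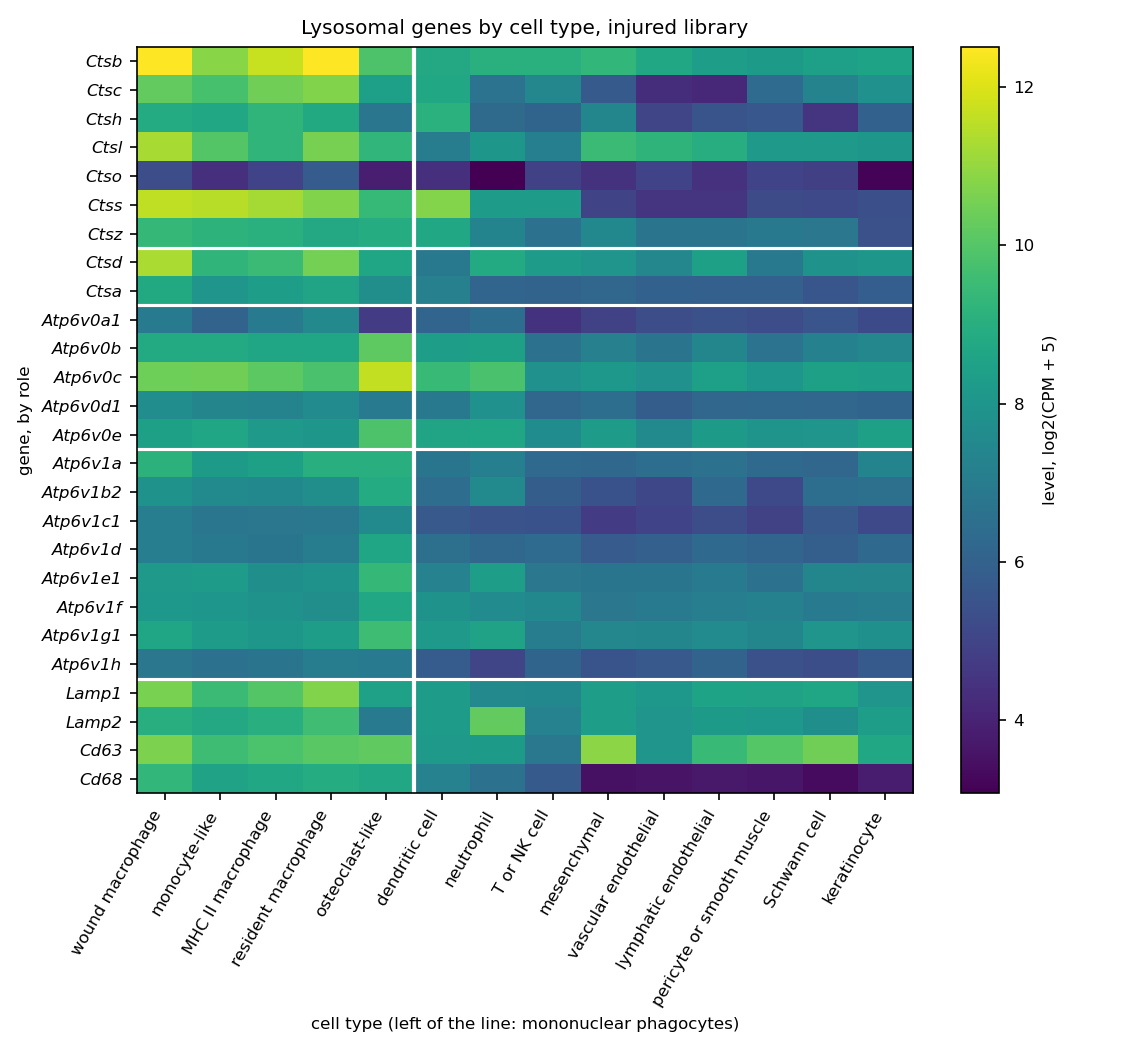
Levels of the 26 lysosomal genes that reached 50 CPM in a mononuclear phagocyte type (rows, grouped by role) in 14 cell types of the injured library (columns). Colour is log2 of the level in CPM plus 5, and the white vertical line separates mononuclear phagocytes from the other types. Ctsb is brightest in the mononuclear phagocyte columns. Ctss is brightest in wound macrophages and is also bright in dendritic cells, at 1723 CPM, while Cd63 is bright in mesenchymal cells at 1879 CPM.

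The V-ATPase genes were spread more widely. Atp6v0c, the proton-carrying ring subunit, was at 1406 CPM in monocyte-like cells, 1365 in wound macrophages and 896 in neutrophils, and between 224 and 345 CPM in the types of 50 or more cells outside the myeloid cells. Atp6v1a, the catalytic subunit, was at 562 CPM in wound and 514 CPM in resident macrophages but at 103 CPM in dendritic cells. Atp6v0d1, which joins the ring to the stalk, was highest in neutrophils, at 226 CPM, against 201 CPM in wound macrophages. Tissue-restricted isoforms lay elsewhere. Atp6v0a4, Atp6v1b1 and Atp6v1c2, isoforms known from acid-secreting epithelia, were at 35.5, 15.3 and 32.9 CPM in keratinocytes. Atp6v0a2, an isoform of the large membrane subunit, was at 80.1 CPM in lymphatic endothelial cells.

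The membrane glycoproteins did not share a pattern. Cd68, a macrophage glycoprotein of late endosomes, was at 628 CPM in wound macrophages and 6.32 CPM in mesenchymal cells. Its level in mononuclear phagocytes was 37.5-fold that in all other kept cells of the injured library. Lamp1, a main protein of the lysosomal membrane, was at 1677 CPM in resident and 1573 CPM in wound macrophages. Lamp2, its partner in autophagy, was highest in neutrophils, at 1213 CPM (1182 to 1244). Cd63, a tetraspanin of late endosomes and exosomes, was highest in mesenchymal cells. Its level in mononuclear phagocytes was 0.934-fold that in all other kept cells.

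Neutrophils, the dendritic cells and the wound macrophages were then compared with their nearest phagocytes in the injured library. In neutrophils, 2 of 28 genes were higher and 16 lower than in mononuclear phagocytes, against 12.8% and 39.6% of all genes. The median log2 ratio over all genes was -0.68 in that pair, its median of ratios was -0.31 on the log2 scale, and the median depth was 3965 UMIs per cell in neutrophils and 13805.5 in mononuclear phagocytes. Ctse and Lamp2 were the higher genes, with Lamp2 2.52-fold (2.45 to 2.59) higher in neutrophils, at 1213 against 482 CPM, while 9 of 10 cathepsins compared were lower. Dendritic cells had 0 of 27 genes higher and 11 lower than MHC class II-high macrophages, against 5.78% and 9.98% of all genes. Ctsb was at 436 CPM in dendritic cells against 3334 CPM in MHC class II-high macrophages, and Ctsd at 113 against 728 CPM. Ctsh and Ctss, at 0.903-fold and 0.708-fold, stayed within 2-fold. The dendritic cluster was named from its marker list, although its 10 leading genes, which included Cd74 and H2-Ab1, held no gene of that list. Between wound and resident macrophages 0 of 28 genes were called in either direction, against 3.25% and 3.73% of all genes. Ctsf was at 11.3 CPM in wound and 25.0 CPM in resident macrophages, 0.454-fold (0.359 to 0.575), and stayed inside the limit because of the 5 CPM added.

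Compared with the other mononuclear phagocytes, osteoclast-like cells had higher levels of many pump genes and lower levels of most cathepsins of the set. The set leaves out Ctsk, which was far higher in them. The cluster held 87 injured cells, at a median depth of 40406 UMIs against 13622 in the other mononuclear phagocytes, and all 10 genes of its marker list were detected, at 10999 CPM summed, against 298 CPM in the other mononuclear phagocytes. Its 6 uninjured cells had 0 UMIs of 6 of those markers, Acp5 and Ctsk among them, and were not described. Its 10 leading genes included Atp6v0c and Atp6v0b, so the comparison is a description of a cluster and not a test. Of 27 genes compared with the other mononuclear phagocytes, 7 were higher and 10 lower, against 13.4% and 14.1% of all genes.

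All 7 higher genes encode pump subunits. Atp6v0c was at 3214 CPM in osteoclast-like cells against 1288 CPM in other mononuclear phagocytes, 2.49-fold (2.44 to 2.55) higher. Its partner in the ring, Atp6v0b, was at 1156 against 441 CPM, and the small membrane subunit Atp6v0e at 924 against 342 CPM. Of the V1 sector, the rotor subunit Atp6v1d was 3.26-fold (3.07 to 3.47) higher, at 397 against 122 CPM. The nucleotide-binding subunit Atp6v1b2 and the stalk subunits Atp6v1e1 and Atp6v1g1 were 2.22-fold, 2.36-fold and 2.27-fold higher. Not every subunit moved this way. Atp6v0a1, an isoform of the large membrane subunit, was lower, at 21.1 against 107 CPM, and Atp6v0d1 was at 124 against 179.7 CPM. Their osteoclast counterparts, which are not among the 48 genes, were at higher levels, with Atp6v0d2 at 447 against 27.5 CPM and Tcirg1 at 209 against 114 CPM. The log2 ratio was 3.80 for Atp6v0d2, a marker used to name the cluster, and 0.84 for Tcirg1, within 2-fold.

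The lower genes were mainly proteases. Ctsb was at 934 CPM in osteoclast-like cells against 4117 CPM in the other mononuclear phagocytes, 0.227-fold (0.219 to 0.235). Ctsd was at 384 against 1517 CPM and Ctss at 673 against 2777 CPM. Ctsc, Ctsh, Ctsl and Ctso were also lower, between 0.228-fold and 0.383-fold. The membrane proteins Lamp1 and Lamp2 were at 0.288-fold and 0.239-fold, while Cd63 was at 1176 against 1161 CPM. Ctsk, the collagen-degrading cathepsin left out of the set, was at 5079 against 57.5 CPM. Summed over subunits, V-ATPase genes were 2.11-fold the level of the other mononuclear phagocytes. Summed over the 22 cathepsins, which do not include Ctsk, the fold was 0.296. In cells of 5000 or more UMIs these folds were 2.12 and 0.296. Scaling by the median of ratios shifts the log2 ratios of this pair by 0.13. The deepest cell held 2.45% of the UMIs of the cluster.

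**Figure D2:**
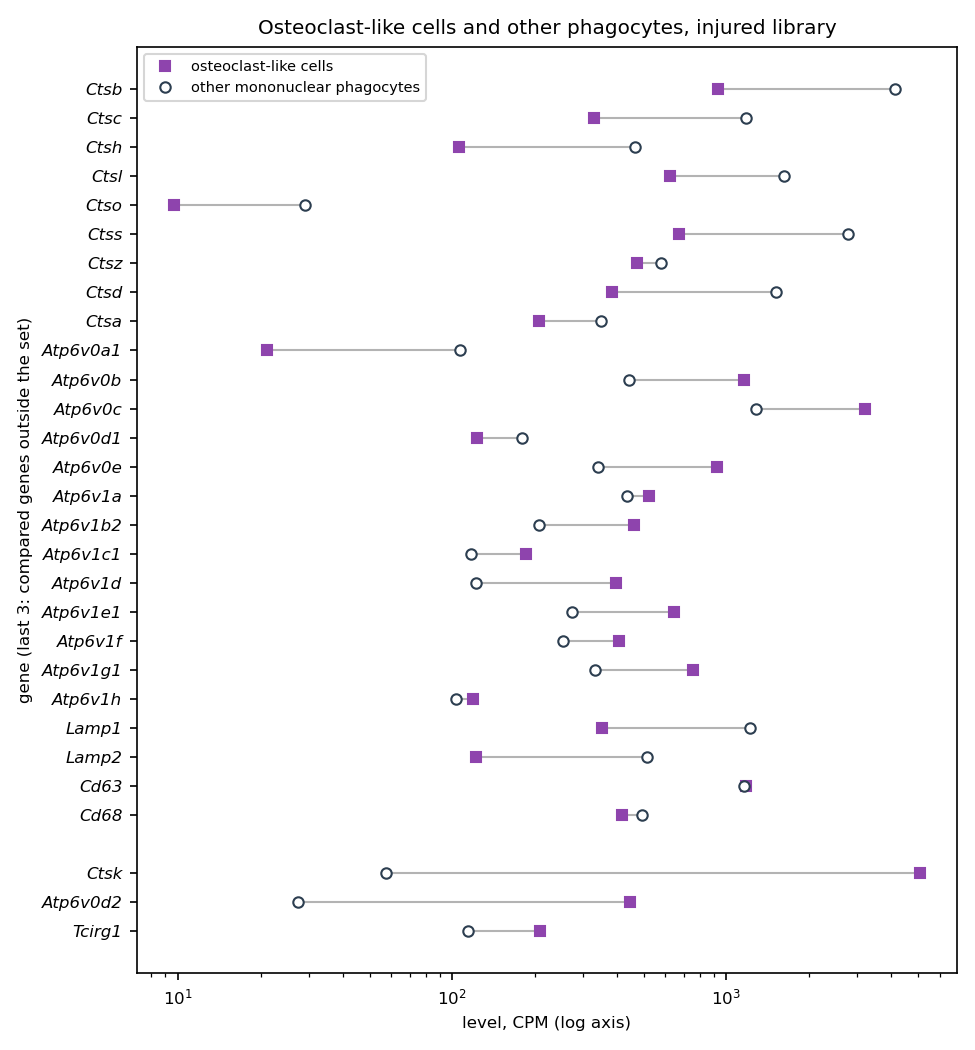
Levels of lysosomal genes in 87 osteoclast-like cells (purple squares) and in the other 2715 mononuclear phagocytes (open circles) of the injured library, on a logarithmic axis in CPM. The last 3 rows are Ctsk, Atp6v0d2 and Tcirg1, which are not among the 48 genes. Squares lie to the right for most pump subunits, as for Atp6v0c at 3214 against 1288 CPM, and to the left for Ctsb, Ctsd and Ctss.

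The second question was how phagocytes of the injured limb differed from those of the uninjured limb. Of 28 genes compared in mononuclear phagocytes, 5 were higher in the injured library and 0 lower, against 2.89% and 4.19% of all 8314 genes compared. The median log2 ratio was 0.55 over the 28 genes and -0.02 over all genes, and 22 of the 28 lay above 0. Counts above 0, here and for cathepsins and pump genes below, are given without the share of all genes above 0. With levels scaled by the median of ratios 8 genes were higher, and in the clusters that held 50 or more cells of both libraries 3 were. The summed level of the 48 genes was 19839 CPM in injured and 12754 CPM in uninjured phagocytes, a ratio of 1.56. The genes called higher were the cathepsins Ctsl (chr13:64359337-64370890, minus strand) and Ctsd (chr7:142375911-142388038, minus strand), the pump genes Atp6v0c (chr17:24163866-24169702, minus strand) and Atp6v1d, and the tetraspanin gene Cd63 (chr10:128900989-128912822, plus strand). These positions are those of the whole gene on mm10, and counts were made per gene, not per exon.

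Ctsl differed most, at 1540.3 CPM in injured and 383 CPM in uninjured phagocytes, 4.02-fold (3.86 to 4.18) higher. Ctsd was at 1426 against 474 CPM, 3.005-fold (2.90 to 3.11) higher. The other 8 cathepsins compared were not called. One of them, Ctsf, was at 9.35 CPM in injured and 20.4 CPM in uninjured phagocytes, 0.458-fold (0.376 to 0.560), and stayed inside the limit because of the 5 CPM added. Ctsb was at 3861 against 3261 CPM, Ctsc at 1111 against 1174 CPM and Ctsh at 435 against 503 CPM. Ctss was at 2608 against 1387 CPM, 1.88-fold and within the limit. Over the 10 cathepsins compared, 6 lay above and 4 below 0, with a median of 0.21.

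Among the 14 pump genes compared, 13 lay above 0, with a median log2 ratio of 0.60. Atp6v0c was at 1443 CPM in injured and 579.9 CPM in uninjured phagocytes, 2.49-fold (2.41 to 2.57) higher. Atp6v1d was at 144 against 67.2 CPM, 2.14-fold (1.95 to 2.36) higher. Atp6v1g1, Atp6v0e and Atp6v1e1 lay just inside the limit, at log2 ratios of 0.99, 0.95 and 0.94. Atp6v0a1 alone lay below 0, at 99.8 against 133 CPM, and Atp6v1a was at 442 against 409 CPM. Among membrane proteins Cd63 was at 1162 against 484 CPM, 2.40-fold (2.32 to 2.49) higher, and Lamp1, Cd68 and Lamp2 were at 1.47-fold, 1.54-fold and 0.865-fold.

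These values mix phagocyte types that the libraries held in different numbers. The injured library held 1075 wound macrophages, 1062 monocyte-like cells and 87 osteoclast-like cells, against 23, 33 and 6 in the uninjured library. The monocyte-like cluster was named from its marker list, but of its 10 leading genes only Plac8 was on that list, and Cd74, H2-Aa, H2-Eb1 and H2-Ab1, genes of MHC class II presentation, were among the others. MHC class II-high macrophages numbered 318 against 213 and resident macrophages 260 against 148. In these last clusters together, an alternative added after the data were seen, Ctsl, Ctsd and Cd63 stayed higher, at log2 ratios of 1.44, 1.35 and 1.07. Atp6v0c and Atp6v1d were within 2-fold there, at 0.81 and 0.77. Without the osteoclast-like cluster alone, Atp6v1d was also within 2-fold, at 0.80, and Atp6v0c was at 1.14.

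Within resident macrophages, 3 of 28 genes were higher and 0 lower, against 2.5% and 3.01% of all genes. Ctsl was at 1522 CPM in injured and 451 CPM in uninjured resident macrophages, 3.37-fold (3.17 to 3.59) higher. Ctsd was at 1498 against 419 CPM, 3.58-fold (3.36 to 3.82) higher, and Cd63 at 1088 against 459 CPM. Just inside the limit were Lamp1, at 1677 against 891 CPM, and Ctss, at 1705 against 915 CPM. Within MHC class II-high macrophages 0 of 28 genes were higher or lower, against 1.46% and 2.95% of all genes. The largest of those 28 ratios were for Cd63, at 1.85-fold (1.75 to 1.96), for Atp6v0c, at 1.82-fold (1.73 to 1.92), and for Ctsl, at 1.70-fold (1.58 to 1.82). Whether the ratios differ between the macrophage types was not tested.

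**Figure D3:**
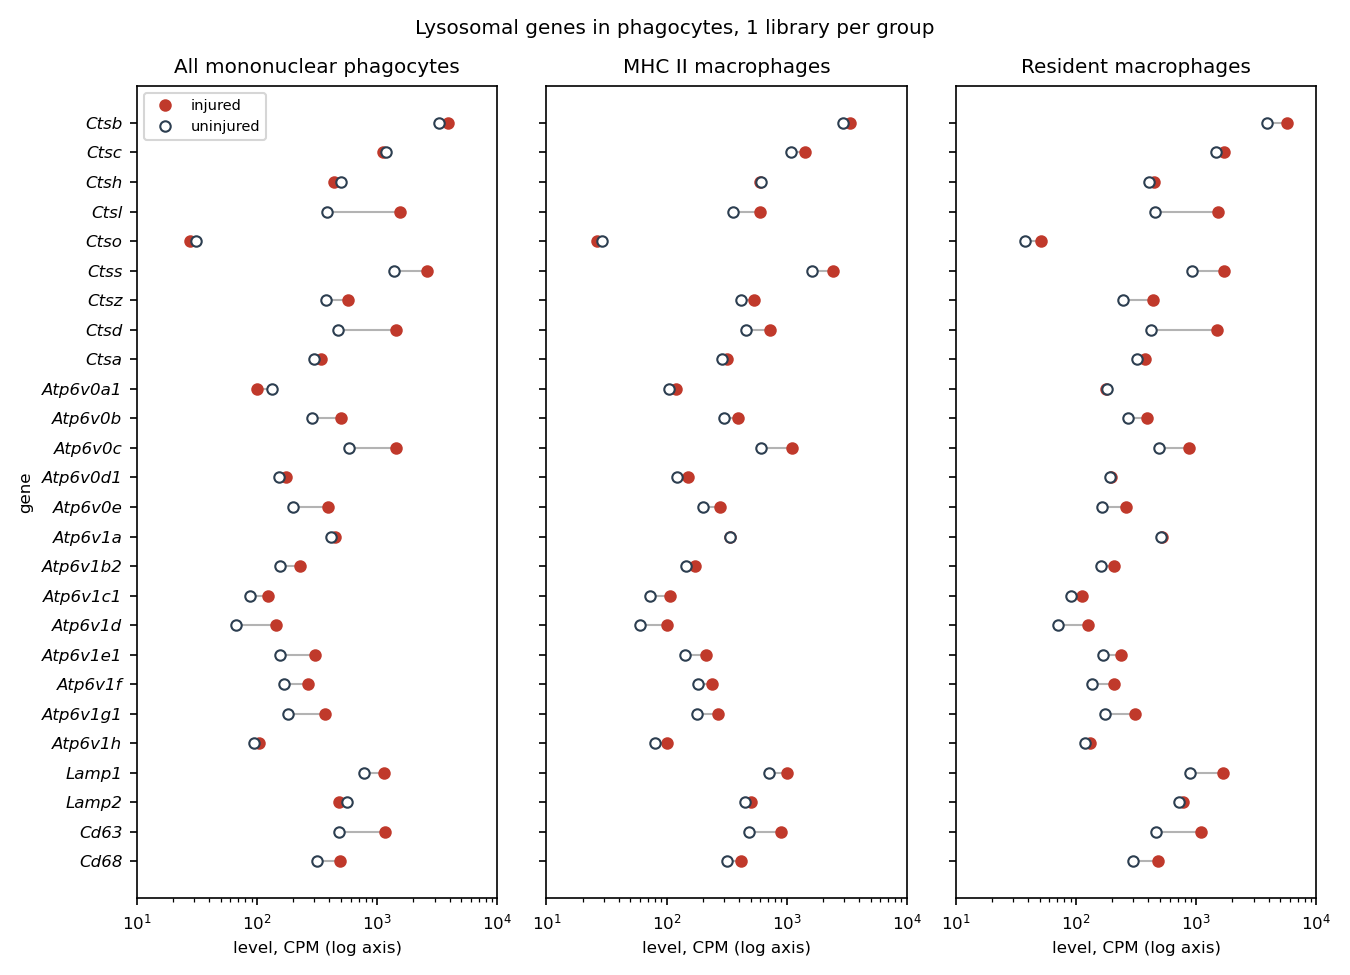
Levels of lysosomal genes in injured (red filled circles) and uninjured (open circles) cells, on a logarithmic axis in CPM, for all mononuclear phagocytes, MHC class II-high macrophages and resident macrophages. Ctsl and Ctsd are far apart in resident macrophages, with Ctsl at 1522 against 451 CPM, and closer in MHC class II-high macrophages, with 601 against 354 CPM.

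In dendritic cells, 252 injured and 98 uninjured, 2 of 27 genes were higher and 0 lower, against 5.09% and 5.52% of all genes. Cd63 was at 280.2 CPM in injured and 22.0 CPM in uninjured dendritic cells, 12.7-fold (9.51 to 17.4) higher, and Ctsl at 129.9 against 38.4 CPM. The level of Cd63 in T or NK cells, the lowest of the 14 types in the injured library, was 111 CPM in the injured and 19.7 CPM in the uninjured library. The macrophage list, with 10 of 10 genes detected in both, summed to 1678 CPM in injured and 2103 CPM in uninjured dendritic cells. The fibroblast list, also with 10 of 10 detected, summed to 549.7 and 326 CPM. Other genes, chosen after values were seen, also differed. Cd163 was at 10.7 CPM in injured and 189 CPM in uninjured dendritic cells. The monocyte list summed to 1031 and 914 CPM, although Ly6c2 on that list was at 41.1 and 0 CPM. Neither the part of other cells' free RNA nor that of a different makeup of the dendritic cells was tested.

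The genes with and without CACGTG in a RefSeq window were then set side by side. Of genes compared in mononuclear phagocytes, those with CACGTG had 2 of 9 higher and a median log2 ratio of 0.55, and those with a window but no CACGTG had 3 of 12 higher and a median of 0.63. In osteoclast-like cells against other mononuclear phagocytes the medians were -0.63 over 8 genes with it and -0.27 over 12 without it.

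Cells that are not phagocytes were compared next. In mesenchymal cells, 2387 injured and 1338 uninjured, 2 of 28 genes were higher and 1 lower, against 4.12% and 6.33% of all genes, and the median log2 ratio was -0.03. The median of ratios over all genes was -0.12 on the log2 scale, and the median depth was 44328 UMIs per cell in injured and 19160.5 in uninjured cells. Ctsc was at 48.9 CPM in injured and 9.39 CPM in uninjured cells, 5.21-fold (4.60 to 5.92) higher. Ctss was at 27.1 against 2.64 CPM, 10.2-fold (8.13 to 13.1) higher. The macrophage gene C1qa moved the same way, at 29.8 against 3.25 CPM, which left Ctss at 0.907 and 0.813 UMIs per C1qa UMI. The macrophage list as a whole had 10 of 10 genes detected in both libraries, at 395 CPM summed in injured and 490.4 CPM in uninjured cells. In uninjured resident macrophages that list summed to 25872 CPM, with C1qa at 3320 CPM. C1qa was thus a far smaller share of the list in uninjured mesenchymal cells, and the summed list need not follow macrophage RNA there. With cells scored as doublets kept, the log2 ratio of Ctss was 0.85, within 2-fold. The part of macrophage RNA in these differences was not tested.

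The lower gene was Atp6v0a4, at 4.81 CPM in injured and 35.9 CPM in uninjured mesenchymal cells, 0.134-fold (0.120 to 0.149). Its UMIs lay mainly in a cluster of 377 uninjured cells with tenocyte markers, at 109.97 CPM. The cluster of 576 injured cells with tenocyte markers held 7.14 CPM, and the other mesenchymal clusters of 50 or more cells held at most 6.24 CPM. Clusters of 490 and 243 injured cells had chondrocyte markers, and no cluster with 50 or more uninjured cells did. Ctsc was at 65.6 and 54.0 CPM in them, and at 30.8 to 43.3 CPM in the other injured clusters of 50 or more cells. Different clusters held most mesenchymal cells of each library, so a difference in makeup and a difference within a cell state cannot be told apart. The 1 cluster with 50 or more cells of both, with 92 injured and 700 uninjured cells and fibroblast markers, held Ctsc at 30.8 against 10.4 CPM and Ctss at 71.3 against 1.85 CPM. C1qa stood at 72.6 against 3.26 CPM there. The proteases that led in phagocytes were not higher over the class, with Ctsl at 729 against 822 CPM and Ctsd at 253 against 447 CPM. Cd63 was at 1879 against 967 CPM, 1.94-fold. In the cluster with 50 or more cells of both libraries the log2 ratios were 0.28 for Ctsl, 0.05 for Ctsd and -0.03 for Cd63.

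Vascular endothelial cells, 1128 injured and 1610 uninjured, had 2 of 26 genes higher and 0 lower, against 3.64% and 4.23% of all genes. The count of higher genes was 5 with doublets kept, with the 48 genes used in clustering or at a lower clustering resolution, and 1 when Xist-only cells were used. Cd63 was at 253 CPM in injured and 30.9 CPM in uninjured cells, 8.16-fold (7.64 to 8.74) higher. The libraries divided differently over the 5 endothelial clusters, all with 50 or more cells of both. The cluster led by Timp4 and Cd36, lowest in Cd63, held 97 of 1128 injured and 1051 of 1610 uninjured cells. Cd63 was higher in the injured library in each of the 5 clusters, between 3.07-fold and 5.996-fold, so each fold within a cluster was below that of the whole class. The smallest fold was 50.5 against 16.5 CPM, in the cluster led by Timp4 and Cd36, and the largest fold was 323 against 53.9 CPM. Ctss was at 17.6 against 3.19 CPM and C1qa at 22.5 against 3.87 CPM, and over the class Ctss per C1qa UMI was 0.784 and 0.824. The cluster led by Cldn5 and Stmn2 differed from the others in Ctss. Its Ctss level was 16.1 against 16.0 CPM, with C1qa at 23.8 against 3.26 CPM. It held 54 of the 98 uninjured Ctss UMIs and 11 of the 119 uninjured C1qa UMIs. In the other 4 clusters Ctss was at 17.2 to 18.5 CPM in injured and 0.553 to 1.97 CPM in uninjured cells. Lyz2, a phagocyte gene chosen after values were seen, was at 48.3 against 63.7 CPM in the cluster led by Cldn5 and Stmn2. In the other 4 clusters Lyz2 was at 55.8 to 89.2 CPM in injured and 6.08 to 16.3 CPM in uninjured cells. The fibroblast list, with 10 of 10 genes detected in both, summed to 612 CPM in injured and 241 CPM in uninjured vascular endothelial cells. The macrophage list, with 10 of 10 genes detected in both, summed to 422 and 419.5 CPM. As in mesenchymal cells, C1qa was a small share of that sum in the uninjured library, and the sum need not follow macrophage RNA. The part of RNA from these cells in the Cd63 and Ctss differences was not tested.

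**Figure D4:**
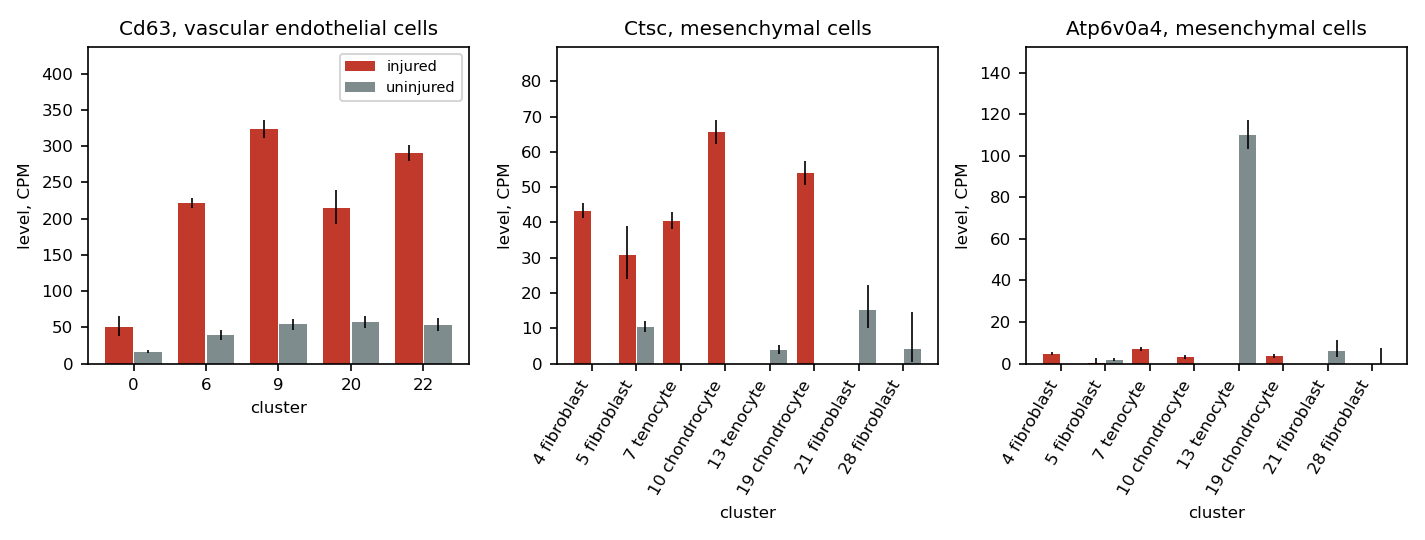
Levels in CPM by cluster and library for Cd63 in vascular endothelial cells and for Ctsc and Atp6v0a4 in mesenchymal cells, for clusters with 50 or more cells of that library. Bars start at 0 and error bars are exact Poisson 95% intervals. Cd63 is higher in the injured bar of each endothelial cluster, and Atp6v0a4 is concentrated in 1 uninjured cluster at 109.97 CPM.

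Pericytes or smooth muscle cells had 4 of 28 genes higher and 1 lower, against 6.29% and 5.94% of all genes. Cd63 was at 1025 CPM in injured and 409 CPM in uninjured cells of this type, Ctsc at 78.2 against 22.8 CPM, and Ctsh and Ctss were also higher. Their macrophage list, 10 of 10 detected in both, summed to 380.4 against 250.2 CPM. Their fibroblast list, also 10 of 10, summed to 9353 against 3224 CPM, and Cd63 was highest in mesenchymal cells. The part of either cell type in the result was not tested. The lower gene was Atp6v0e2, an isoform of the small membrane subunit, at 3.03 against 22.8 CPM. Schwann cells had 3 of 28 genes higher, Ctsb, Ctsc and Cd63, and 0 lower, against 10.8% and 8.61% of all genes. Cd63 was at 1409.98 against 479.97 CPM in them. The fibroblast list, 10 of 10 detected in both, summed to 6717 CPM in injured and 2675 CPM in uninjured Schwann cells, and the macrophage list to 659 and 1016 CPM, with Fcgr1 at 0 in the uninjured ones. Their part in the result was not tested. As in mesenchymal cells, the macrophage sums of pericytes or smooth muscle cells and of Schwann cells need not follow macrophage RNA. Lymphatic endothelial cells, 83 injured and 84 uninjured, had 1 of 24 genes higher, Ctsd at 338 against 137 CPM, and 0 lower, against 10.2% and 9.88% of all genes. Summed over all kept cells, which also moves with the cell types present, 6 of 28 genes were higher, Ctsb, Ctsc, Ctss, Atp6v0c, Cd63 and Cd68, and 0 lower, against 4.47% and 6.15% of all genes.

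**Figure D5:**
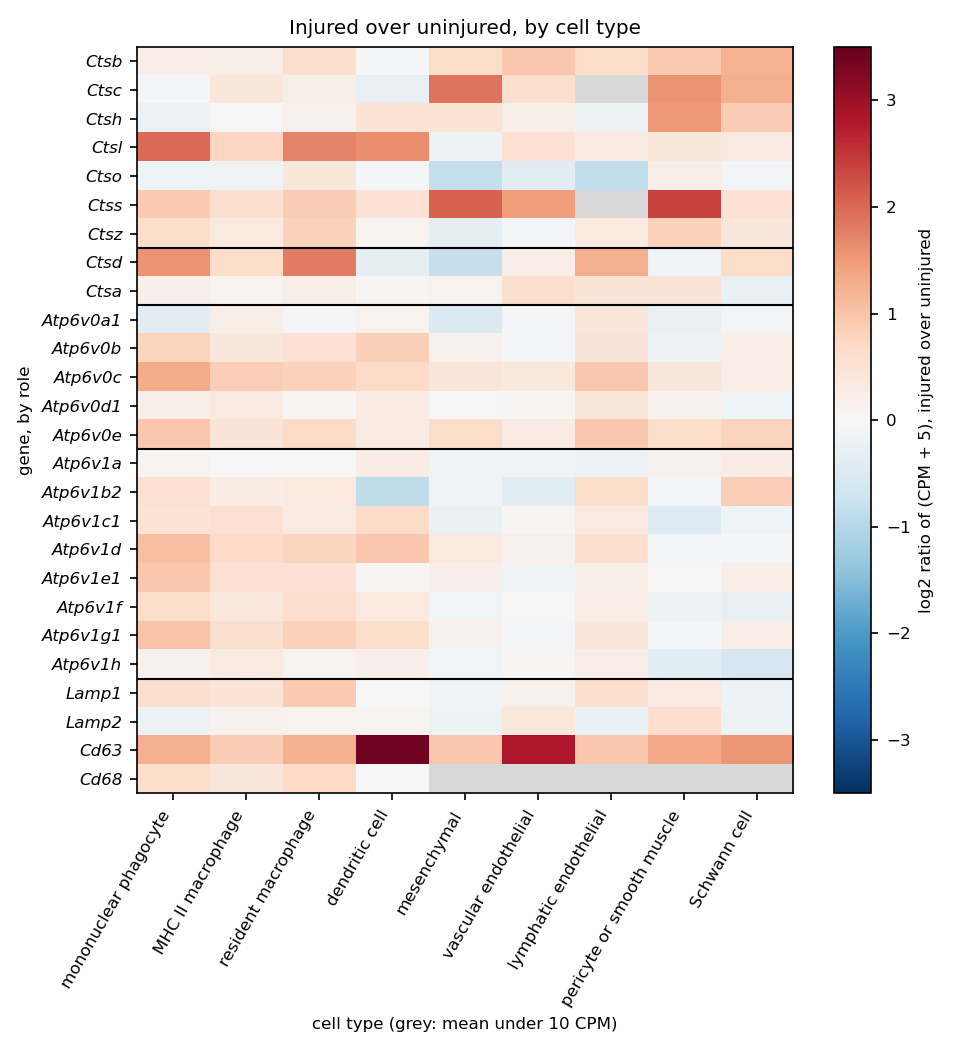
Log2 ratio of injured over uninjured level, with 5 CPM added to both, for 26 lysosomal genes (rows) in 9 cell types with 50 or more cells of both libraries (columns). Grey marks genes whose mean level was under 10 CPM. Cd63 is above 0 in each of the 9 types, although it was at -0.03 in the mesenchymal cluster that both libraries filled, and Ctsl and Ctsd are red in mononuclear phagocytes but below 0 in mesenchymal cells as a class, though not in that cluster.

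Other lysosomal genes in mononuclear phagocytes were set beside the 48, from lists made with earlier results of these data known. Each list is given beside the 2.89% higher and 4.19% lower of all genes. Of 9 other lysosomal proteases and activators compared, 3 were higher and 0 lower, with a median log2 ratio of 0.23. They were Ctsk, the thiol reductase Ifi30 and the aspartic protease Napsa. Ctsk was at 461 CPM in injured and 15.4 CPM in uninjured phagocytes, and at 57.5 against 15.8 CPM without the osteoclast-like cluster. Ifi30 was at 769 against 306 CPM and Napsa at 87.3 against 36.6 CPM. The cathepsin inhibitors differed from each other. The cytosolic inhibitor Cstb was at 943 against 285 CPM, 3.30-fold (3.16 to 3.46) higher, and the secreted inhibitor Cst3 was at 1565 against 2461 CPM, 0.636-fold (0.625 to 0.647) and within 2-fold.

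Of 5 other pump subunits and accessory proteins, 1 was higher, Atp6v0d2 at 61.2 against 15.7 CPM, and the median was 0.46. That level includes the osteoclast-like cluster, for which Atp6v0d2 is a marker. Tcirg1, the osteoclast isoform of the large membrane subunit, was at 122 against 62.8 CPM. Of 9 assembly factors 1 was higher, Dmxl2, at 85.9 against 36.0 CPM. Of 14 genes of lipid and nucleic acid handling 1 was higher, the acid phosphatase Acp5, at 313 against 25.6 CPM. Without the osteoclast-like cluster Acp5 was at 101 against 26.3 CPM. Glycosidases and sulfatases had a median of 0.05, with 0 of 22 higher and 1 lower, the sulfatase Arsb at 47.5 against 183 CPM. Among the 12 other membrane proteins 0 passed 2-fold, with a median of 0.13, and among 6 genes of mannose 6-phosphate sorting 1 was higher, the receptor Igf2r, named after its values were seen, at 55.2 against 12.0 CPM. The MiT factors stayed within 2-fold, with Tfeb at 33.9 against 37.9 CPM, Tfe3 at 63.8 against 82.6 CPM, Mitf at 216 against 269.95 CPM and Tfec at 57.1 against 40.4 CPM.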

How the data were processed

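Droplet 3′ single-cell libraries were made from digested tissue, per the labels' protocols, 1 per condition. The authors deposited unnormalised UMI counts for each gene in each barcode, as integers per the file headers, made with Cell Ranger 5.0.1 on mm10 per the submitters' processing notes. The sources used here name neither the annotation release nor the cell calling, and no barcode held fewer than 500 UMIs.

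The 48 genes and all gene lists were chosen with earlier results of these data known. Barcodes were kept when at least 500 genes were detected and no more than 10% of UMIs were mitochondrial. Scrublet in scanpy 1.11.5 marked 1 cell per library by its automatic threshold, so cells with a doublet score above 0.2 were removed, a limit set after the data were seen (229 injured and 63 uninjured cells, 2.45% and 1.32%). Doublets may remain. Log-transformed counts at 10000 UMIs per cell, 2000 variable genes without the 48 genes, 30 principal components and 15 neighbours (scikit-learn 1.9.0) gave Leiden clusters at resolution 0.8 with seed 1, both libraries together and without batch correction. Each cluster took the name of the best of 24 marker lists with 3 or more markers found in 10% of its cells. Clusters with a close rival list, a weak score or unfitting leading genes stayed unnamed, by limits set after the data were seen, and held 358 injured and 406 uninjured cells. Macrophage clusters were divided by 3 state lists.

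UMIs were summed per library and cell type and scaled to 1000000 UMIs (CPM). Genes at a mean of 10 CPM or more were compared on log2 ratios with 5 CPM added, and types with 50 or more cells on both sides were used. Poisson and conditional exact 95% intervals came from scipy 1.17.1 and were tested on simulated data. Genes of the set at 50 CPM or more in a macrophage, monocyte-like or osteoclast-like type of 50 or more cells were eligible to be named with values, and genes of other lists where their mean was 50 CPM or more and past 2-fold, with Ctsk, Atp6v0d2, Tcirg1, Cst3, Cstb and the MiT factors. All 48 gene IDs were found in the GENCODE annotation used for gene positions, and 39 had a promoter window in the RefSeq table, whose starts can differ from GENCODE's. Alternatives covered filters, doublets, clustering, naming, weighting, scaling, sex-linked subsets, the added CPM and the level filter. The comparison of protein sequences between isoforms was not run.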

Additional observations from a re-analysis of the deposited data

Results flagged for a closer look

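Ctsc, Ctsl and Ctsd had ratios of injured over uninjured level on opposite sides of 1 in mononuclear phagocytes and in mesenchymal cells. Ctsc was 5.21-fold in mesenchymal cells and 0.946-fold in mononuclear phagocytes. Ctsl was 4.02-fold in mononuclear phagocytes and 0.886-fold in mesenchymal cells, and Ctsd was 3-fold and 0.565-fold in the same types. With 1 library per condition these differences between cell types were not tested. In mesenchymal cells the sign changed in 2 of 15 settings for Ctsl and in 1 of 15 for Ctsd, while in mononuclear phagocytes both stayed more than 2-fold higher in all 16 settings. In mononuclear phagocytes the sign for Ctsc changed in 1 of 16 settings.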

How the results depend on the processing

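Over 18 results and 206 alternative values, 150 stayed within the limits set for a like value, 56 moved and 0 reversed, and the cause was not tested. In mononuclear phagocytes the summed fold of 1.56 was 1.53 with a mitochondrial limit of 20%, 1.54 with doublets kept, 1.51 with libraries clustered alone, 1.57 by marker scores, 1.48 in Xist-only and 1.83 in Y-only cells, 1.48 as a mean over cells, 1.63 scaled by the median of ratios, 1.57 without osteoclast-like cells and 1.49 in shared clusters. The 5 higher genes became 8 by the median of ratios, which added Atp6v0e, Atp6v1e1 and Atp6v1g1, and 3 in shared clusters. The 0 lower became 1 in Y-only cells and 1 with 1 CPM added. In mesenchymal cells the higher count of 2 was 1 with doublets kept. The lower count of 1 was 2 in Y-only cells, 2 without the level filter and 0 in the shared cluster. The fold of 1.19 was 1.18 with libraries alone, 1.16 in Xist-only, 1.23 in Y-only cells, 1.29 by the median of ratios and 1.13 in the shared cluster. In vascular endothelial cells the higher count of 2 was 5 with doublets kept, 5 with the 48 genes kept in clustering, 5 at a lower resolution and 1 in Xist-only cells. The fold of 1.31 was 1.503, 1.47 and 1.46 under the first 3 of these, 1.32 with libraries alone, 1.23 in Xist-only, 1.35 in Y-only cells and 1.29 by the median of ratios. Mononuclear phagocytes over all other kept injured cells (3.74) gave 3.76 with the genes kept in clustering and 3.64 by marker scores. The same fold was 3.76 in cells of 5000 or more UMIs and 3.505 as a mean over cells. The uninjured fold (3.43) gave 3.54 at the 20% limit. It gave 3.48, 3.32 and 3.49 for the genes kept, marker scores and mean over cells. In osteoclast-like cells the pump fold of 2.11 was 1.97, 2.26 and 1.93, and the cathepsin fold of 0.296 was 0.340, 0.272 and 0.287, as a mean over cells, in Xist-only and in Y-only cells. Shared-cluster and osteoclast-like alternatives were added after the data were seen. No paired analysis was possible because each condition has 1 library. Depth limits genes near 10 CPM and types under 50 cells.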

Other observations

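The cathepsin inhibitor Cst3 also differed outside the phagocytes. It was at 642 CPM in injured and 2606 CPM in uninjured mesenchymal cells, and at 607 against 1725 CPM in the mesenchymal cluster that both libraries filled. In vascular endothelial cells it was at 446 against 1378 CPM, but the clusters differed. In the cluster led by Timp4 and Cd36, with 97 injured and 1051 uninjured cells, it was at 1247 against 1212 CPM, and in the one led by Cldn5 and Stmn2 at 1850 against 2887 CPM. The other 3 clusters had folds of 0.266 to 0.457. The protease gene Lgmn, named after its values were seen, had the other direction, at 150.1 against 40.0 CPM in mesenchymal cells. In vascular endothelial cells Lgmn was at 301 against 49.8 CPM, and the 5 clusters had folds of 2.29 to 6.39. Mitf was at 50.3 against 173.5 CPM in mesenchymal cells and at 161 against 215 CPM in the cluster that both libraries filled.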
